A study of Homo sapiens with 6 samples.

Results

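Annexins are proteins that bind acidic phospholipids such as phosphatidylserine when calcium is present, and the genes described here are the 9 family members ANXA1, ANXA2, ANXA3, ANXA4, ANXA5, ANXA6, ANXA7, ANXA10 and ANXA11. They were found through the array annotation as the probe sets, groups of short probes that together read 1 transcript, annotated to a single gene symbol among these names. This gave 14 probe sets for the 9 genes, of 11963 genes with a single-symbol probe set in the table. Of these, 13 probe sets and 8 genes passed a filter on dim signal and were tested among 11303 probe sets and 7035 genes. ANXA10 did not pass and is given by its values.

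The study hybridised 6 Affymetrix arrays with total RNA of PC3, a human prostate carcinoma cell line that grows without androgen and was derived from a bone metastasis. The labels placed 3 arrays (replicates 4 to 6) in a PSMA group, PC3 cells in RPMI carrying a pLNCX plasmid for human prostate-specific membrane antigen (PSMA, encoded by FOLH1). The other 3 arrays (replicates 1 to 3) were labelled control. Their titles and genotype said wildtype, while their source label and treatment protocol named the empty vector, and by that protocol both kinds of cells went through FuGENE 6 transfection and puromycin selection. Whether each group was 1 clone or a selected pool was not given in the sources used here.

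Annexins are built from repeats that fold into a curved disc, and calcium ions at the convex face bridge the protein to the membrane. The unique tails in front of this core differ between members and set their partners: the tails of ANXA1 and ANXA2 bind S100 proteins, and those of ANXA7 and ANXA11 are long and bind other calcium sensors. Family members take part in membrane repair, in traffic of vesicles and in the surface assembly of plasmin, and ANXA5 is widely used as a probe for phosphatidylserine on dying cells. In prostate epithelium ANXA1 and ANXA2 are known as genes whose protein is often reduced in carcinoma.

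The windows around the annotated starts of transcription are shown for ANXA6 and ANXA1, the tested annexins at either end of the order of differences, for ANXA2, which was read by the most probe sets, and for ANXA10, whose window resembled that of ANXA1. Each runs from 250 bases before to 50 bases after the start, 5′ to 3′ on the gene's own strand, from RefSeq with build GRCh38.p14. Capitals mark matches to TATAAA, the core of the TATA box, and to GGGCGG, the core of a GC box, searched on both strands. Overlapping matches of GGGCGG run together.
ANXA1, chr9:73151615-73151914, plus strand: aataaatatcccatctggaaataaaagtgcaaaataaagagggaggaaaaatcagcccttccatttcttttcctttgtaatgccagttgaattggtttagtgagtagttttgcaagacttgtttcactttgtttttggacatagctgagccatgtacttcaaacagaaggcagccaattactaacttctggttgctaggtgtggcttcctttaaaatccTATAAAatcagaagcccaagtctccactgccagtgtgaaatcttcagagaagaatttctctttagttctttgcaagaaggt
ANXA10, chr4:168092287-168092586, plus strand: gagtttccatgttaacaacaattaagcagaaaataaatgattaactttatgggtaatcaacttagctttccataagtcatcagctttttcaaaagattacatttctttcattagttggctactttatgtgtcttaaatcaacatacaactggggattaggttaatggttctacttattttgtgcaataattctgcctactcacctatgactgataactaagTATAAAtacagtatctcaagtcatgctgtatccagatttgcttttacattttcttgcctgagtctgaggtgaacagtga
ANXA2, chr15:60397937-60398236, minus strand: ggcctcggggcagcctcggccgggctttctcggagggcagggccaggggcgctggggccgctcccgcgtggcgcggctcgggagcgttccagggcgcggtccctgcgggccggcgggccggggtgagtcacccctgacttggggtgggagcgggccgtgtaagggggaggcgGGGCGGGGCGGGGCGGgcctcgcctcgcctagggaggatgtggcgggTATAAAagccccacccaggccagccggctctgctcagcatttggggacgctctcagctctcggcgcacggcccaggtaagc
ANXA6, chr5:151157730-151158029, minus strand: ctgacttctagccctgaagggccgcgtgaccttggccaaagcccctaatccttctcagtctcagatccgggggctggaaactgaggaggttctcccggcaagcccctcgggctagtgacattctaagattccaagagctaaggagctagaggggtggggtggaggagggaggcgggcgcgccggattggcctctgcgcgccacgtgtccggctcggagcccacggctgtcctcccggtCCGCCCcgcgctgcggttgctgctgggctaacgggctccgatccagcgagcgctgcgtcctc

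The windows of ANXA1 and ANXA10 held 0 CpG dinucleotides, with a GC content of 37.7% and 32.7%, and each had 1 TATAAA match that began 31 and 29 bases before the start. The window of ANXA2 had 32 CpG, a GC content of 76.0%, 3 matches of GGGCGG and 1 of TATAAA. The ANXA6 window shown, at the more upstream of its 2 starts, had 25 CpG and 1 match of GGGCGG on the opposite strand. The other ANXA6 window, not shown, had 10 CpG, a GC content of 56.3% and 0 matches of either motif. All 9 genes had a window, 13 in all because ANXA4, ANXA6 and ANXA11 have several starts. TATAAA was found in 4 of the 13 and GGGCGG in 7 of the 13, against 11.5% and 45.0% of the 35116 windows in the table, of which 3.96% held 0 CpG. A match describes the letters only and is not a measured binding site.

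Signal was first checked on FOLH1, because the plasmid of the PSMA cells carries it. Its brightest probe set, shared with the near-identical gene FOLH1B, read 15.1, 8.58 and 13.7 on arrays labelled PSMA, against 477, 417 and 548 on arrays labelled control. The groups did not overlap, in the direction opposite to the labels; the PSMA values lie near or below the table's 25th percentile of 13.0, so no fold is given. The probe set of FOLH1 alone read 24.4 to 32.0 on arrays labelled PSMA and 59.7 to 61.5 on arrays labelled control. Only the control values exceeded the filter of 52.5, so no test is given. The 3 further FOLH1 and FOLH1B sets were also lower on every array labelled PSMA. All directions below therefore follow labels that the FOLH1 signal contradicts, and "rose" or "higher" means higher on the arrays labelled PSMA.

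On the log2 scale, r over all probe sets was 0.9976 to 0.9981 for arrays sharing a label and 0.9874 to 0.9878 for arrays with different labels (a description, as probe sets are no replicates). Epithelial markers (KRT8, KRT18, KRT19, EPCAM and CDH1) were present, with summed intensities of 13233 to 13716 on arrays labelled PSMA and 16514 to 17012 on arrays labelled control. By the test described below 4 of 5 fell, beside 33.5% of all genes tested. None of the 3 prostate luminal markers measured (KLK3, KLK2 and TMPRSS2) passed the filter. Nor did any of 5 leucocyte markers, whose sums ran from 77.0 to 80.8 on arrays labelled PSMA and from 64.1 to 72.4 on arrays labelled control. That gap lay in ITGAM (mean 28.5 in PSMA arrays and 21.1 in control arrays) and CD3E (28.5 and 23.7, groups overlapping). Means of PTPRC, CD14 and LYZ were slightly lower in PSMA arrays. COL1A1 alone of 4 fibroblast markers passed the filter, with overlapping groups averaging 90.5 in PSMA arrays and 83.1 in control arrays. The list's sums were 137 to 143 in PSMA arrays and 157 to 164 in control arrays, a gap that lay in LUM, which was below the filter at a mean of 6.26 in PSMA arrays and 35.1 in control arrays. PECAM1 alone of 3 endothelial markers passed (list sums 78.8 to 91.4 in PSMA arrays and 70.0 to 84.6 in control arrays). The 3′/5′ signal ratio, which grows where RNA is degraded or copied short, was 1.36 ± 0.0872 on arrays labelled PSMA and 1.30 ± 0.0668 on arrays labelled control for GAPDH (SD, n = 3 each). For ACTB it was higher in both groups, at 4.44 ± 0.757 on arrays labelled PSMA and 4.61 ± 0.658 on arrays labelled control. Of the 3 control probe sets for 28S ribosomal RNA, the middle one read 675 ± 4.29 in PSMA arrays and 1498 ± 63.1 in control arrays (SD, n = 3 each). The 5′ one read 4047 ± 358 in PSMA arrays and 5778 ± 681 in control arrays, and the 3′ one, with overlapping groups, 20.4 ± 0.994 in PSMA arrays and 19.3 ± 1.23 in control arrays. The part of this signal in the results was not tested.

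Of the 8 annexin genes tested, 5 rose on the arrays labelled PSMA (ANXA6, ANXA5, ANXA2, ANXA11 and ANXA4), 1 fell (ANXA1) and 2 did not pass the threshold (ANXA3 and ANXA7). The test was limma with Benjamini-Hochberg adjustment over all genes and a threshold of 0.05, by which 63.6% of all genes passed, 30.1% higher and 33.5% lower. The share of annexins that passed, 6 of 8, is to be read against that background. The median log2 difference was 0.22 for the 8 annexins and -0.01 for all genes tested. The members were chosen with earlier results of these data known, so this comparison is a description. All changes were small: 0 of the 8 annexins moved by more than 1.5-fold, and ANXA6 came nearest at 1.44-fold. Of all 7035 genes tested, 13.8% both passed and moved by more than 1.5-fold. Tested against a minimum fold of 1.5, 0 annexins passed, beside 7.48% of all genes. In RNA of whole cultures, fewer cells that express a gene and less of its RNA per cell cannot be told apart.

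**Figure D1:**
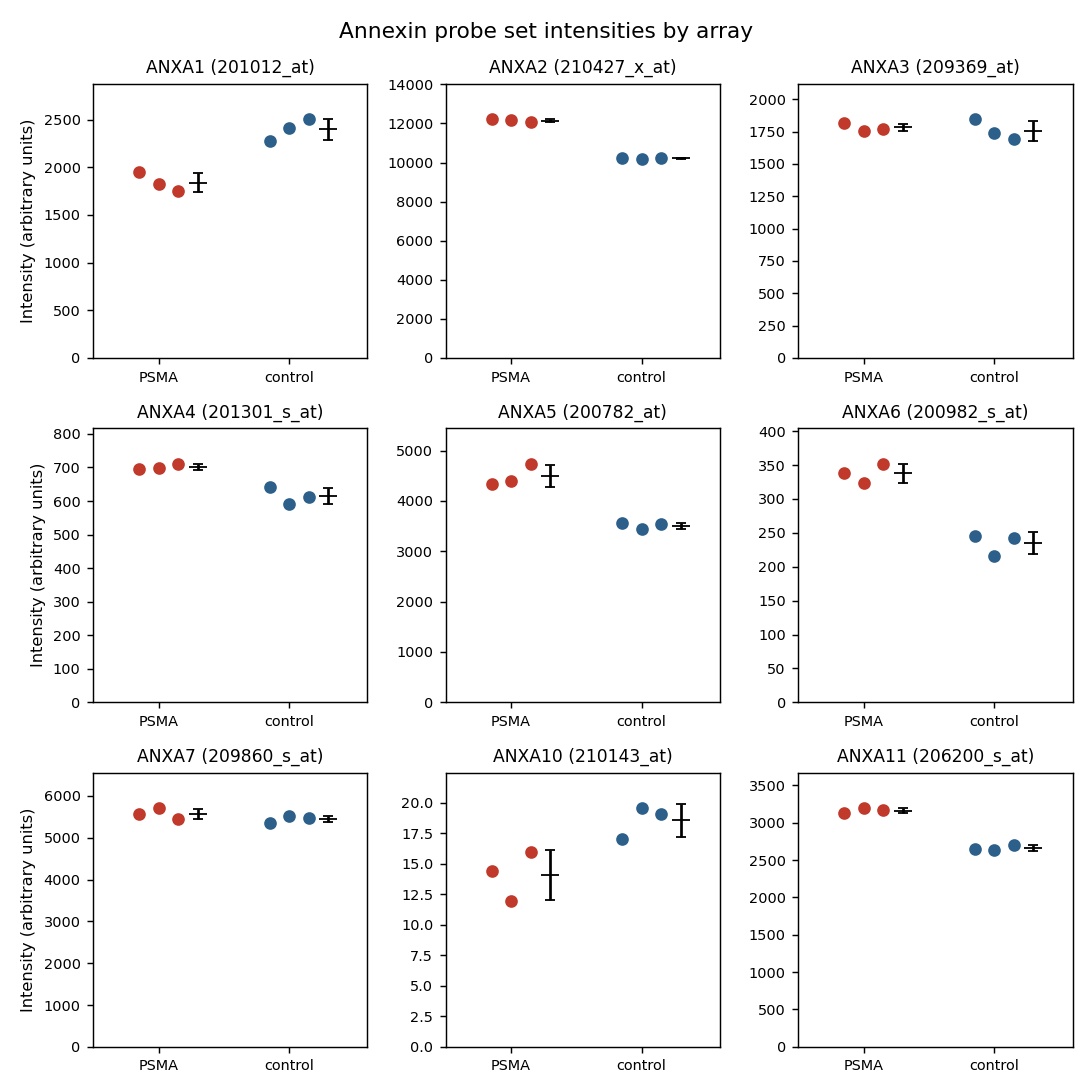
Intensity (arbitrary units, linear axis from 0) of the probe set that represents each annexin gene, by array; points are the 3 arrays of each group, and the bar beside them is the mean with its SD. The groups do not overlap for ANXA1, ANXA2, ANXA4, ANXA5, ANXA6, ANXA10 and ANXA11, with ANXA1 and ANXA10 lower on arrays labelled PSMA, and they overlap for ANXA3 and ANXA7.

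ANXA6, the largest family member, is made of a duplicated core and is known for organising cholesterol and actin at membranes. Its probe set read 338, 323 and 352 on arrays labelled PSMA, against 245, 216 and 243 on arrays labelled control. Every PSMA array lay above every control array, and the 1.44-fold increase (log2 difference 0.53, SE 0.0604, limma adjusted p = 9.0e-05) exceeded in size the changes of 83.2% of all genes. ANXA5, the phosphatidylserine binder that also coats phospholipid surfaces against clotting, read 4330.2, 4401 and 4735 in PSMA arrays and 3553, 3442 and 3533 in control arrays. It rose 1.28-fold (log2 difference 0.35, SE 0.048, limma adjusted p = 0.000245), again with no overlap between groups.

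ANXA2 forms a complex with S100A10 that gathers plasminogen and its activators on the cell surface. On its brightest probe set it read 12209, 12159 and 12073 in PSMA arrays, against 10208, 10196 and 10229 in control arrays. The 1.19-fold increase (log2 difference 0.25, SE 0.0384, limma adjusted p = 0.00051) was larger than the spread within either group. Its other 2 probe sets rose 1.19-fold and 1.21-fold (limma adjusted p over probe sets 0.00076 and 0.00052). All 3 carry the suffix that Affymetrix gives to sets whose probes may also bind related transcripts, and ANXA2 has several processed pseudogenes. The probe set of one of these, ANXA2P2, rose by a similar amount, reading 4079, 4117 and 4227 in PSMA arrays, against 3383, 3356 and 3436 in control arrays (log2 difference 0.29, adjusted p = 0.00044). How much of the signal of either comes from transcripts of the other was not tested.

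A further probe set, annotated to both ANXA2 and SNU13, was not counted among the members. It read 2429.9, 2466 and 2459 on arrays labelled PSMA and 2423, 2318 and 2545 on arrays labelled control, with overlapping groups (log2 difference 0.01, 95% interval -0.096 to 0.13, limma adjusted p = 0.81). The log2 ratio of the brightest ANXA2 set to this shared set was 2.31 ± 0.0178 in PSMA arrays and 2.07 ± 0.0649 in control arrays (SD, n = 3 each). With 3 arrays against 3, the exact two-sided permutation test of such a ratio cannot go below 0.1, the value it gave (0.2 after adjustment over the 6 ratios compared). Which of the 2 genes the shared set reads was not tested.

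ANXA11, a partner of the calcium sensor PDCD6 that tethers RNA granules to lysosomes, was measured by 2 probe sets that moved together. The brighter read 3133, 3191 and 3164 in PSMA arrays, against 2652, 2630.3 and 2699 in control arrays, a 1.19-fold increase (log2 difference 0.25, SE 0.0393, limma adjusted p = 0.0006). The dimmer read 308, 290.1 and 316 in PSMA arrays, against 269.6, 269 and 254 in control arrays, and rose by 0.21 on the log2 scale (adjusted p over probe sets 0.008). In neither set did the groups overlap.

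ANXA4, which binds membranes of polarised epithelial cells, gave different answers on its 2 probe sets. The brighter read 696, 697 and 711 in PSMA arrays, against 641, 592 and 612 in control arrays, with no overlap (1.14-fold, log2 difference 0.19, SE 0.0452, limma adjusted p = 0.0058). The other read 352, 327 and 329.8 in PSMA arrays, against 353, 336 and 343 in control arrays, and did not pass (log2 difference -0.03, 95% interval -0.14 to 0.078, adjusted p over probe sets 0.58). Within each array, the log2 ratio of the first set to the second was 0.98, 1.09 and 1.11 in PSMA arrays and 0.86, 0.82 and 0.84 in control arrays, so the groups did not overlap in this ratio (exact permutation p = 0.1, the smallest possible, and 0.2 adjusted over 6 ratios). With the mean of both sets in place of the brighter one, the difference of ANXA4 was 0.079 and no longer passed (limma adjusted p = 0.14). The increase of ANXA4 thus rests on 1 of its 2 probe sets.

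**Figure D2:**
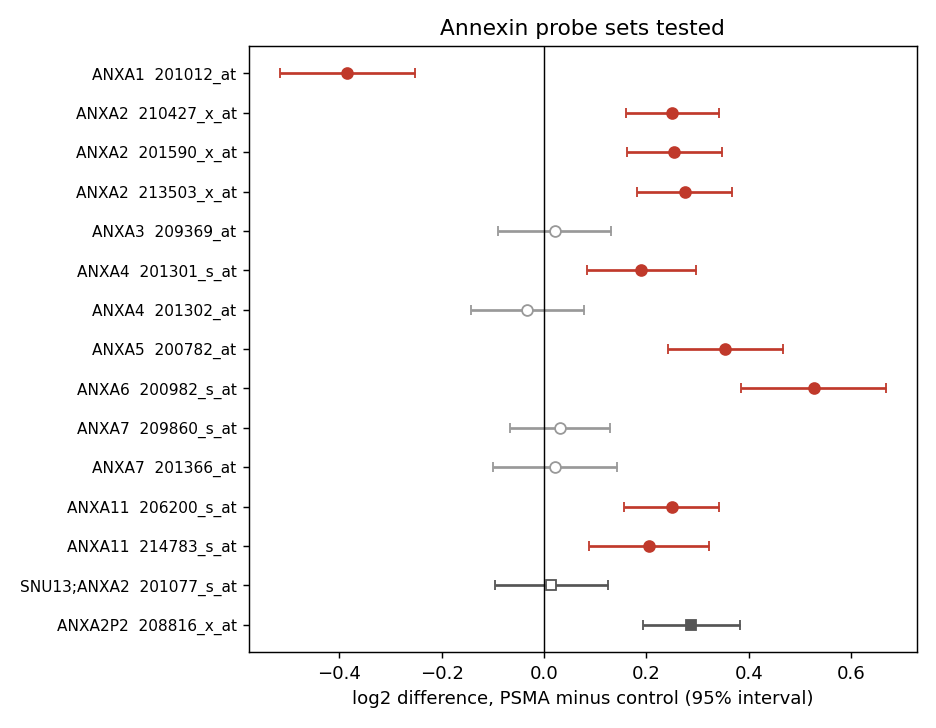
Log2 difference (PSMA minus control) with its 95% interval from limma for the 13 tested annexin probe sets (circles) and for 2 probe sets of related sequence that are not members (squares); filled symbols passed the adjusted threshold of 0.05. The 3 ANXA2 sets and the ANXA2P2 set lie between 0.25 and 0.29, while the set shared by SNU13 and ANXA2 and the dimmer ANXA4 set lie near 0.

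ANXA1 was the single tested annexin that fell. It is a mediator of glucocorticoid action that inhibits phospholipase A2 and, once released, acts on formyl peptide receptors of leucocytes. It read 1947, 1819 and 1746 on arrays labelled PSMA, against 2279, 2410.0 and 2501 on arrays labelled control. The groups did not overlap, and signal was 1.30-fold lower in PSMA arrays (log2 difference -0.38, SE 0.0565, 95% interval -0.51 to -0.25, limma adjusted p = 0.0004).

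ANXA10, a gene known for expression in gastric epithelium and for a core that lacks most calcium sites, was dim on every array. It read 14.4, 11.9 and 15.9 in PSMA arrays, against 17.0, 19.5 and 19.1 in control arrays, all below the filter of 52.5. The groups did not overlap. It was among the 32% of probe sets called in the fit that kept dim ones, but its values lie near the table's 25th percentile of 13.0, and no size is given.

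ANXA3, associated with growth and vessel formation in tumours, read 1814, 1757 and 1773 in PSMA arrays, against 1844, 1735 and 1691 in control arrays. The groups overlapped, and the log2 difference of 0.02 (95% interval -0.086 to 0.13, limma adjusted p = 0.72) did not pass. ANXA7, which promotes membrane fusion in secretion, read 5557, 5702 and 5451 in PSMA arrays, against 5365, 5513 and 5473 in control arrays, on its brighter probe set (log2 difference 0.03, 95% interval -0.063 to 0.13, adjusted p = 0.53). Its second set read 2575, 2484 and 2575 in PSMA arrays, against 2552, 2621 and 2351 in control arrays (groups overlapping in both sets, log2 difference 0.02, adjusted p over probe sets 0.74). For both genes the intervals exclude differences as large as those of ANXA5 and ANXA6, while they do not show equal levels.

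Ordered by log2 difference the tested genes ran ANXA6, ANXA5, ANXA2, ANXA11, ANXA4, ANXA7, ANXA3 and ANXA1. The 95% intervals of neighbours in this order overlapped in every case except between ANXA3 and ANXA1, and differences between members were not tested. Over probe sets, 8 of 13 rose, 1 fell and 4 did not pass, beside 28.2% of all probe sets that rose and 32.4% that fell (60.6% in all). Several probe sets read 1 gene, so these are not separate results. The values of the groups did not overlap in 6 of the 8 genes, beside 69.5% of all genes, and in 9 of the 13 probe sets, beside 67.3% of all probe sets. These last shares are near the background and are no result about the annexins.

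The other annexin sequences on the array gave little signal. The 6 probe sets of ANXA8 with ANXA8L1, ANXA9, ANXA13 and the pseudogenes ANXA2P1 and ANXA2P3 read between 7.84 and 38.5 over all arrays and were below the filter.

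The chromosomal neighbours of the annexins were compared as well. For each tested member, the median log2 difference of the 7 tested genes on either side along the chromosome ran from -0.15 beside ANXA6 to 0.25 beside ANXA7, within the range of -0.32 to 0.40 that held the middle of all such windows (5th to 95th percentile). Beside ANXA6, with the largest increase, 3 of 14 neighbours were above 0. ANXA7, which did not pass, had 11 of 14 neighbours above 0. For the other tested members the number ran from 4 of 14 beside ANXA4 to 8 of 14 beside ANXA11. Of all 7035 genes tested, 3371 were above 0.

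The absence of CpG in the window of ANXA1 was set beside all tested genes with a window. Of 10 tested genes with 0 CpG in every window, ANXA1 among them, 8 fell and 1 rose, and of 87 genes with 1 to 4 CpG, 45 fell (51.7%) and 17 rose (19.5%). Of 370 genes with 5 to 14 CpG, 39.7% fell and 31.9% rose, and of 5464 genes with 15 or more, 32.0% fell and 30.4% rose. Over all 5931 genes with a window the shares were 32.9% and 30.3%. The first class is thin, and no test was made of the difference between classes. The windows also depend on which starts the table lists for a gene. All tested annexins other than ANXA1 had at least 1 window with 15 or more CpG.

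The 6 values of ANXA6, each centred on the gene's mean, were most like those of DUSP7, a phosphatase of the ERK kinases, ATG14, a subunit of the lipid kinase complex that starts autophagy, and PWP1, a ribosome biogenesis factor. Their root-mean-square distances to ANXA6 were 0.0444, 0.0457 and 0.0461 log2 units over 6 arrays, and their log2 differences were 0.53, 0.49 and 0.55. The values most like those of ANXA1 were those of MSRB1, which repairs oxidised methionine, SLC25A14, a mitochondrial carrier, and ECE1, which activates endothelin. Their distances were 0.0154, 0.0269 and 0.0277, and their log2 differences -0.38, -0.34 and -0.36. Both sets of genes were chosen by these same 6 values, so their differences are a description.

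Partners of the annexins were described from 4 lists. Of 53 genes listed, 41 had a single-symbol probe set and 32 were tested; 16 rose, 5 fell and 11 did not pass, beside 30.1% and 33.5% of all genes. The median log2 difference over the 32 was 0.14, against -0.01 over all genes. The lists were chosen with earlier results of these data known, so these counts and medians are a description. Among the 5 that fell, PLA2G4A passed the filter through its control values.

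Among binding partners and regulators, 6 of 11 tested rose, 2 fell and 3 did not pass, with a median of 0.16 (of all genes, 30.1% rose and 33.5% fell). S100A10, the light chain of the ANXA2 complex, read 5818, 5906 and 6105 in PSMA arrays, against 6293, 6349 and 6125 in control arrays (log2 difference -0.07, limma adjusted p = 0.16). The arrays did not overlap, but the difference did not pass. The log2 ratio of ANXA2 to S100A10 was 1.03 ± 0.0438 in PSMA arrays and 0.71 ± 0.0294 in control arrays (SD, n = 3 each; exact permutation p = 0.1, the smallest possible, and 0.2 adjusted over 6 ratios). S100A11, which binds the tail of ANXA1, also fell, at 1778, 1914 and 2072 in PSMA arrays and 2469, 2330.4 and 2391 in control arrays (log2 difference -0.32, limma adjusted p = 0.0017). Over the PSMA arrays in replicate order, S100A11 values increased, while those of ANXA1 decreased (1947, 1819 and 1746). The ratio of ANXA1 to S100A11 differed by less than its spread, at -0.063 ± 0.189 in PSMA arrays and -0.00066 ± 0.0998 in control arrays on the log2 scale (SD, n = 3 each, exact permutation p = 0.7).

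**Figure D3:**
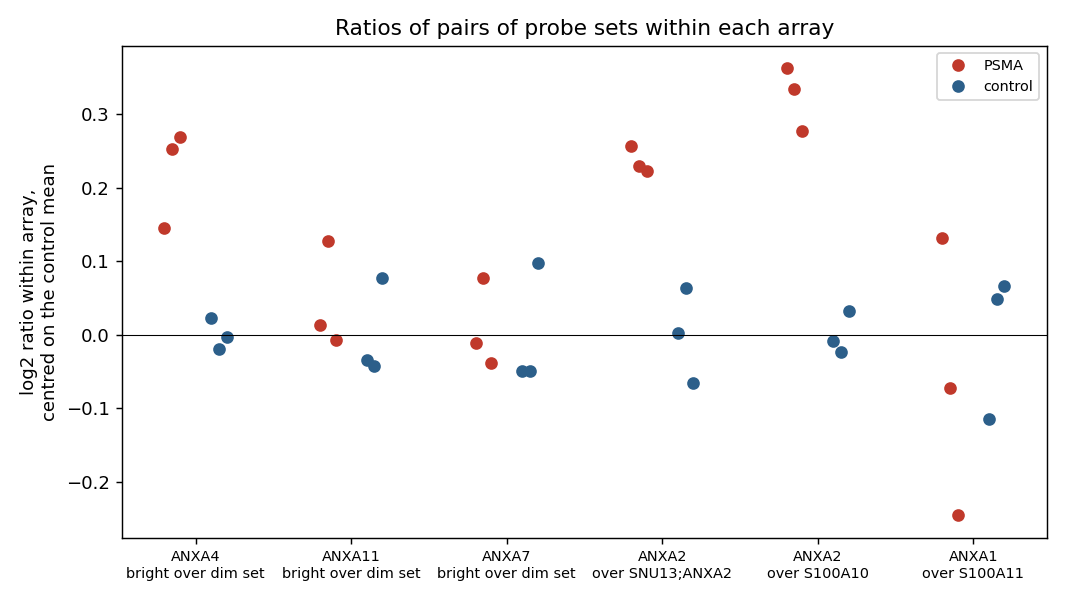
Log2 ratio of pairs of probe sets within each array, centred on the mean of the control arrays; points are the 3 arrays of each group, those labelled PSMA to the left. The groups separate for the 2 ANXA4 sets, for ANXA2 over the set shared by SNU13 and ANXA2, and for ANXA2 over S100A10, and they overlap for ANXA11, for ANXA7 and for ANXA1 over S100A11.

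One of the 2 genes that fell was PLA2G4A, the cytosolic phospholipase A2 that releases arachidonic acid and that ANXA1 is known to inhibit. It read 59.3, 43.5 and 45.9 in PSMA arrays, against 127, 132 and 113 in control arrays. The groups did not overlap, but 2 of the 3 PSMA values were below the filter of 52.5, which the gene passed through its control values, so no fold or p is given. Kinases that phosphorylate annexin tails were higher: PRKCA, the protein kinase C alpha gene, read 410.0, 425 and 438 in PSMA arrays, against 219, 189.8 and 202 in control arrays (2.09-fold, adjusted p = 1.4e-06), and SRC rose 1.72-fold (adjusted p = 2.7e-06). AHNAK, a giant scaffold bound by the ANXA2 complex, rose by 0.31 on the log2 scale, the tumour suppressor NF2 by 0.29, S100A6 by 0.17 and sorcin, SRI, a partner of ANXA7, by 0.16. PDCD6, the calcium sensor that binds ANXA7 and ANXA11, did not pass, with a log2 difference of 0.02, and neither did S100A4, with 0.11. The receptors of ANXA1, FPR1, FPR2 and FPR3, were below the filter, with values from 5.20 to 31.5.

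In membrane repair, 8 genes were tested, of which 3 rose and 1 fell, beside 30.1% and 33.5% of all genes. The median log2 difference was 0.03. CAPN2, the large subunit of a calcium-activated protease, read 5606, 5597 and 5847 in PSMA arrays, against 3455, 3329.7 and 3213 in control arrays (1.71-fold, limma adjusted p = 2.0e-06). MYOF, a ferlin of the plasma membrane, rose 1.45-fold and EHD1, a membrane-shaping ATPase, 1.30-fold. VPS4B, which disassembles the ESCRT machinery, fell by 0.24 on the log2 scale. The repair protein gene DYSF (-0.02), CAPN1 (0.01), the small calpain subunit CAPNS1 (0.02) and VPS4A (0.03) did not pass.

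Among genes that expose or recognise phosphatidylserine, the lipid that ANXA5 binds, 3 of 6 tested rose, 2 fell and 1 did not pass. Of all genes, 30.1% rose and 33.5% fell. The list's median was 0.11. AXL, a receptor kinase engaged by phosphatidylserine through GAS6, read 2912, 2746 and 2904 in PSMA arrays, against 1862, 1728 and 1633 in control arrays (1.64-fold, limma adjusted p = 1.1e-05). GAS6 itself rose by 0.26 and the related receptor TYRO3 by 0.13 on the log2 scale (adjusted p for TYRO3 0.048). TMEM30A, the partner that flippases need to keep phosphatidylserine inside, fell by 0.36 and PLSCR1, named as a scramblase, by 0.13. The caspase-activated scramblase gene XKR8 (0.09) did not pass.

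Of the plasminogen system that the ANXA2 complex serves, 4 of 7 tested genes rose and 3 did not pass, with a median of 0.19. By the same test 63.6% of all genes passed, 30.1% higher and 33.5% lower. PLAU, the urokinase gene, read 4303, 4322 and 4487 in PSMA arrays, against 2665, 2604 and 2671 in control arrays (1.65-fold, limma adjusted p = 1.6e-06). PLAT, the tissue plasminogen activator gene, read 781, 849 and 836 in PSMA arrays, against 565, 531 and 552 in control arrays (log2 difference 0.58, adjusted p = 1.5e-05). ENO1, a glycolytic enzyme that also binds plasminogen at the surface, rose by 0.36 and the inhibitor SERPINE2 by 0.19 on the log2 scale. The urokinase receptor gene PLAUR (-0.11), the plasminogen receptor gene PLGRKT (0.11) and the clearance receptor gene LRP1 (0.16) did not pass, and PLG was below the filter.

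**Figure D4:**
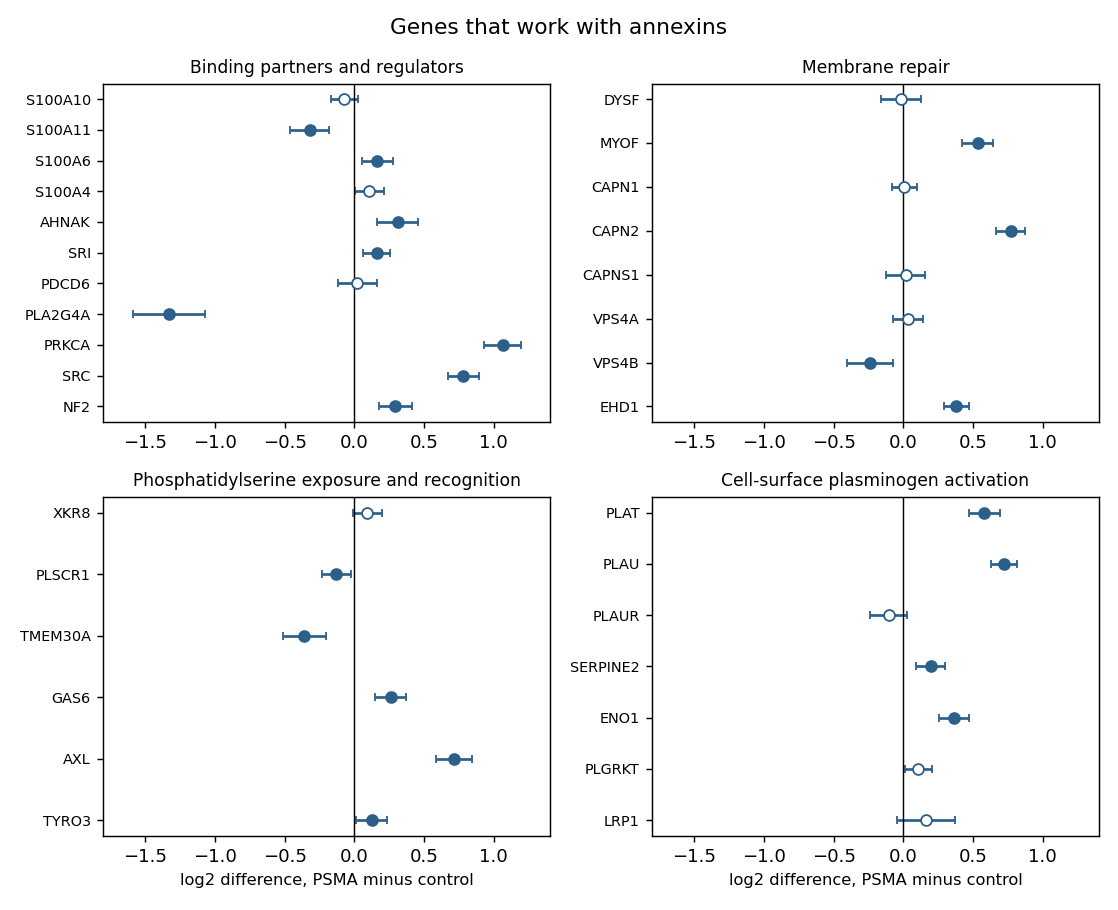
Log2 difference (PSMA minus control) with its 95% interval from limma for the 32 tested genes of 4 lists of annexin partners; filled circles passed the adjusted threshold of 0.05. PRKCA lies furthest to the right at 1.06. PLA2G4A, furthest to the left, had 2 of 3 PSMA values below the filter and passed it through its control values. Its position and symbol are therefore no measure of a change. Most other genes lie between -0.4 and 0.8.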

How the data were processed

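Intensities of 22277 probe sets on 6 arrays were deposited, made by the authors with GCRMA, per the submitters' processing notes; no version or scale was stated there. GCRMA corrects background by probe base composition and normalizes across arrays. Values ran from 3.76 to 17455 with array medians of 51.7 to 52.9 and were taken as linear. Of all values, 4.25% (4.07% to 4.39% per array) shared 1 of 6 decimal endings spaced a sixth of a unit apart, as did 7 of the 84 annexin values; they were used as deposited, and the cause was not tested. No detection calls were used. The platform annotation gave 19064 probe sets 1 symbol, 1043 several and 2108 none; 62 control sets were left out.

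Values were log2-transformed with no pseudocount. A probe set was kept where 3 or more arrays exceeded 52.5, the table's overall median. A gene was its brightest single-symbol set by mean log2 value. Differences (PSMA minus control) were fitted over all kept genes, and over all kept probe sets, with limma 3.58.1 in R 4.3.3 (lmFit, eBayes), with two-sided p-values adjusted by Benjamini-Hochberg, threshold 0.05. The code of the fit was run on simulated arrays with independent noise and few changed probe sets, unlike these data. That run does not bear on the p-values given here. Python 3.11.15, pandas 2.3.3 and matplotlib 3.10.9 made summaries and plots. With 3 arrays a group, their number limits precision. Since the labels name no separate cultures, the p-values reflect array-to-array spread that may be purely technical. Named genes were the 9 members, listed partners, and 3 genes nearest in pattern to ANXA6 and to ANXA1. Members and lists were chosen with earlier results of these data known. Alternatives changed the filter, a pseudocount of 16, a floor, the normalization, the variance model, the probe set rule, a minimum fold and single arrays.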

Additional observations from a re-analysis of the deposited data

How the results depend on the processing

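The 5 increases and 1 decrease among annexin genes kept their direction and passed with each array left out in turn, with a stricter filter, a pseudocount of 16, a floor at the 25th percentile, quantile normalization, median centring and a trended robust variance. With no filter, ANXA10 was tested too and 7 of 9 annexins passed, beside 4614 of all 11963 genes. The values of ANXA10 lie near the table's 25th percentile of 13.0. With the mean over probe sets, ANXA4 (0.079) did not pass. Against a minimum fold of 1.5, 0 annexin genes, 0 annexin probe sets, 4 partner genes and 526 of all genes (7.48%) passed. That test asks for more than a difference from 0. Without it, 6 annexin genes, 9 annexin probe sets, 21 partner genes and 4476 of all genes (63.6%) passed, beside 60.6% of all probe sets. Among the 21, PLA2G4A passed the filter through its control values. With 1 array left out, ANXA3 ran from -0.0060 (without control replicate 3, limma adjusted p = 0.92) to 0.056, and it passed in no fit. The FOLH1 probe set of 1 gene was lower on arrays labelled PSMA wherever it was fitted, but it passes the filter only through its control values, so these fits do not bear on its stability. No paired analysis was possible because the groups share no replicate numbers.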
